A study of Homo sapiens with 7 samples.

Results

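N6-methyladenosine (m6A) is a methyl mark placed on adenosines inside mRNA, and the positions examined here are those at which every deposited peak list of HEK-293T cells has a peak. A site was a peak of m6A-ORL replicate 2 whose blocks, the exonic pieces of a peak, shared at least 1 nt, on the same strand, with a peak of m6A-ORL replicate 1, of MeRIP replicate 1 and of MeRIP replicate 2. There were 1075 sites among the 7661 peaks of m6A-ORL replicate 2, and the 4 lists together held 59659 peaks. The sites were 14.0% of the m6A-ORL replicate 2 peaks (exact 95% binomial interval 13.3 to 14.8%, counting error only). Because membership was chosen from the peak calls, this share and the overlaps themselves are descriptions and carry no test.

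HEK-293T is a human embryonic kidney cell line, grown without any genetic change or drug in this series, and the labels set the libraries apart by how RNA was captured and by RNA type. Sample titles call the captured libraries treated and the inputs control. In m6A-ORL, fragmented RNA was treated in turn with NO/O2, TDO and a biotin probe named BA, after which it was pulled down with streptavidin and eluted with DTT. Replicate 1 of m6A-ORL is labelled total RNA and replicate 2 polyA RNA, so RNA type and replicate cannot be told apart. The protocol given for every sample describes an oligo(dT) step, so the total RNA label goes unchecked. In MeRIP, fragments of polyA RNA were captured with an antibody against m6A, in 2 replicates. The other 3 samples of the series are inputs and were not analysed here. Whether the replicates are separate cultures is not stated, so the spread between them may be technical.

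In mammalian mRNA, m6A is written by a nuclear complex built around METTL3 and METTL14, with adaptor proteins such as RBM15 and ZC3H13. It is removed by FTO and ALKBH5 and bound by YTH-domain readers, of which YTHDF2 is known for shortening the life of bound mRNA. The mark is known to lie mostly in a short motif around GGAC, to be dense near stop codons and in long internal exons, and to be sparse close to splice junctions.

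The lists differ in size and make-up. m6A-ORL replicates 1 and 2 held 11022 and 7661 peaks, and MeRIP replicates 1 and 2 held 20760 and 20216. Peaks at the sites were 9.97% of the m6A-ORL replicate 1 list, 4.85% of the MeRIP replicate 1 list and 4.93% of the MeRIP replicate 2 list. Spliced peaks, those with 2 or more blocks, were 9.88% and 27.8% of the m6A-ORL lists and 16.9% and 16.3% of the MeRIP lists, so m6A-ORL replicate 2, on which the sites are anchored, stands apart in this measure. Read depth is unknown, since the lists carry no read counts.

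Motif sequences could be read for only a small part of the sites, because RefSeq promoter windows of GRCh38.p14, 250 bases before to 50 after a gene start, were the only genomic sequence at hand. The motif GGACT, searched on the strand of the peak alone, was found in 6 of the 64 sites with at least 50 bases inside a window (9.38%, exact 95% interval 3.52 to 19.3%). It was found in 39 of 409 other m6A-ORL replicate 2 peaks (9.54%, 6.87 to 12.8%), whose covered stretch averaged 90.2 nt, against 111 nt at the sites. The intervals overlap over most of their length, so no difference was detectable here. Of all 35116 windows of 300 bases, 25.3% held GGACT on the strand of their gene, a share over longer stretches than those of the peaks. A window can belong to another gene than the one the site is listed under. This was so for FTH1 (window of LOC399900), ERP29 (LOC124903021), ARIH1 (TMEM202-AS1) and ENSG00000162298 (FAU), and the ERP29 site lay at 89.3% of its span. The sequences below, from RefSeq, show the match with its flanks at 5 sites, in capitals, 5′ to 3′ on the peak strand, and a match is a description of the letters only.
FTH1, chr11:61967150-61967178, minus strand: cgaggtttccgaGGACTtctctggcgcag
ERP29, chr12:112022226-112022254, plus strand: cttccgggatggGGACTttgagaacccag
ARIH1, chr15:72474353-72474381, plus strand: aggtggcgttggGGACTgttttctctcgg
ENSG00000172115, chr7:25125250-25125278, minus strand: cggcgtgtccttGGACTtagagagtgggg
ENSG00000162298, chr11:65122218-65122246, minus strand: ggggcggagctaGGACTgccttgggcggt

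In ARIH1, an E3 ubiquitin ligase gene, and in the 2 genes given by ID, the match lay inside the stretch that peaks of all 4 lists cover. In FTH1, the ferritin heavy chain, and ERP29, a chaperone of the endoplasmic reticulum, it lay in the m6A-ORL replicate 2 peak outside that stretch. FTH1 has processed pseudogenes, and the placing of shared reads is a step not given in the sources used here.

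The best-ranked sites lay in genes of several functions. Each peak was ranked by the authors' score within its list, and a site took the mean over lists of its best peak as a percentage of list length, so that a small value means a good rank in every list. In MeRIP replicates 1 and 2, 287 and 308 peaks have a score of 0 and share a tied rank. The best sites of EEF2, JUN, IRS4, SLC7A5, SOX4, PRRC2A, AMOT, ZNF703 and CALR all hold it, so their order rests on the m6A-ORL lists alone. Widths are those of the peak with the largest overlap, which can be another peak than the best-ranked one. EEF2, the factor that moves the ribosome along mRNA, came first at 1.17%, with peaks of 299 and 418 nt in m6A-ORL replicates 1 and 2 and 478 nt in both MeRIP lists. All 4 peaks of EEF2 were centred within 30 nt of each other, at 95.9% of its genomic span. JUN, which makes up AP-1 together with FOS proteins, followed with the next best value, 1.5%, and with peaks of 871 and 1740 nt in m6A-ORL and 2610 nt in both MeRIP lists. The MeRIP peak of JUN thus covers most of its 3257-nt span, and all 4 lists placed a broad peak there.

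IRS4, an adaptor of insulin and growth factor receptors, ranked at 1.52%, with peaks of 1410 and 541 nt in m6A-ORL and 2999 and 3029 nt in MeRIP. SLC7A5, the large neutral amino acid transporter, ranked at 1.53%, with peaks of 450 and 600 nt in m6A-ORL and 1110 and 1080 nt in MeRIP. TUBB, a beta-tubulin, ranked at 2.01%, with peaks of 660 and 1020 nt in m6A-ORL and 1050 nt in both MeRIP lists. In TUBB, as in EEF2, the m6A-ORL replicate 2 peak was nearly as wide as the MeRIP peaks, whereas in IRS4 it was far narrower, and reads of tubulin genes can be shared among close paralogs. The others of the 10 best named genes were SOX4 at 2.03%, PRRC2A at 2.09%, AMOT at 2.15%, ZNF703 at 2.25% and CALR at 2.33%. They encode a SOX transcription factor, a proline-rich RNA-binding protein, an angiomotin that binds the Hippo effector YAP, a zinc-finger corepressor and an endoplasmic reticulum chaperone.

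Some sites sat exactly at the threshold of membership. At 73 sites the smallest overlap with a list was exactly 1 nt, no site had a smallest overlap of 2 to 10 nt, the next value was 13 nt, and 83 sites had 31 nt. The median smallest overlap was 91 nt. Just outside, 86 peaks of m6A-ORL replicate 2 missed membership by a gap of 30 nt or less, the smallest being 4 nt and the median 29 nt. Peak widths in these lists step by about 30 nt, and whether the 1-nt overlaps come from peaks that merely abut was not tested.

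Many sites were listed more than once. In all, 111 site peaks overlapped another site peak, leaving 1018 separate loci, and 34 of these loci were listed under 2 or more gene IDs. The sites carried 861 gene IDs, which is 19.2% of the 4495 IDs with an m6A-ORL replicate 2 peak. By position, 729 of these IDs received a gene name, 19.5% of the 3741 named genes with such a peak.

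Most genes had a single site. Of the 861 gene IDs, 703 had 1 site, 126 had 2, 18 had 3, 8 had 4, 3 had 5, 2 had 6 and 1 had 7. The share with 2 or more was 18.4% (15.8 to 21.1%), or 16.7% (144 IDs) when overlapping site peaks of a gene were merged. Genes with a site averaged 2.47 peaks in m6A-ORL replicate 2 and 2.91 in MeRIP replicate 1, whereas other genes with an m6A-ORL replicate 2 peak averaged 1.52 and 1.71. A gene with more peaks has more chances to hold a site, so every count of genes below has to be read with this.

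SPEN, a large nuclear repressor protein that binds XIST RNA, held most sites, 7. It had 16 and 9 peaks in m6A-ORL replicates 1 and 2 and 13 in each MeRIP list. Its sites spread over 62704 nt of a 92750-nt genomic span, introns included. Of these sites, 5 lay in one stretch beyond 86% of the span, with centres at 86.8, 87.3, 91.1, 92.6 and 94.6%. KMT2D, a histone H3 lysine 4 methyltransferase, held 6 sites among 12 peaks in each m6A-ORL list and 17 and 14 peaks in MeRIP. Its sites ranged between 21.6 and 94.2% of the span. TSPYL1, of the nucleosome assembly protein family, was also listed with 6 sites, but these were 3 pairs of overlapping peaks and thus 3 loci within 1799 nt.

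IRS4 held 5 sites within 3628 nt. Of these, 4 lay under one MeRIP peak of 2999 nt in replicate 1 and 3029 nt in replicate 2, and the fifth under MeRIP peaks of 451 and 391 nt. RBM15B, an adaptor of the m6A writer complex, showed the same picture, with 4 sites in 1499 nt, all under a MeRIP peak of 2908 nt in both replicates. SOX12, a SOX transcription factor, had 3 of its 4 sites under a MeRIP peak of 1703 nt, and FOXK1, a forkhead factor, had 4 sites between 90.1 and 95.3% of its span. SON, a scaffold of nuclear speckles, and SETD1A and SETD1B, histone H3 lysine 4 methyltransferases, held 4 sites each.

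**Figure D1:**
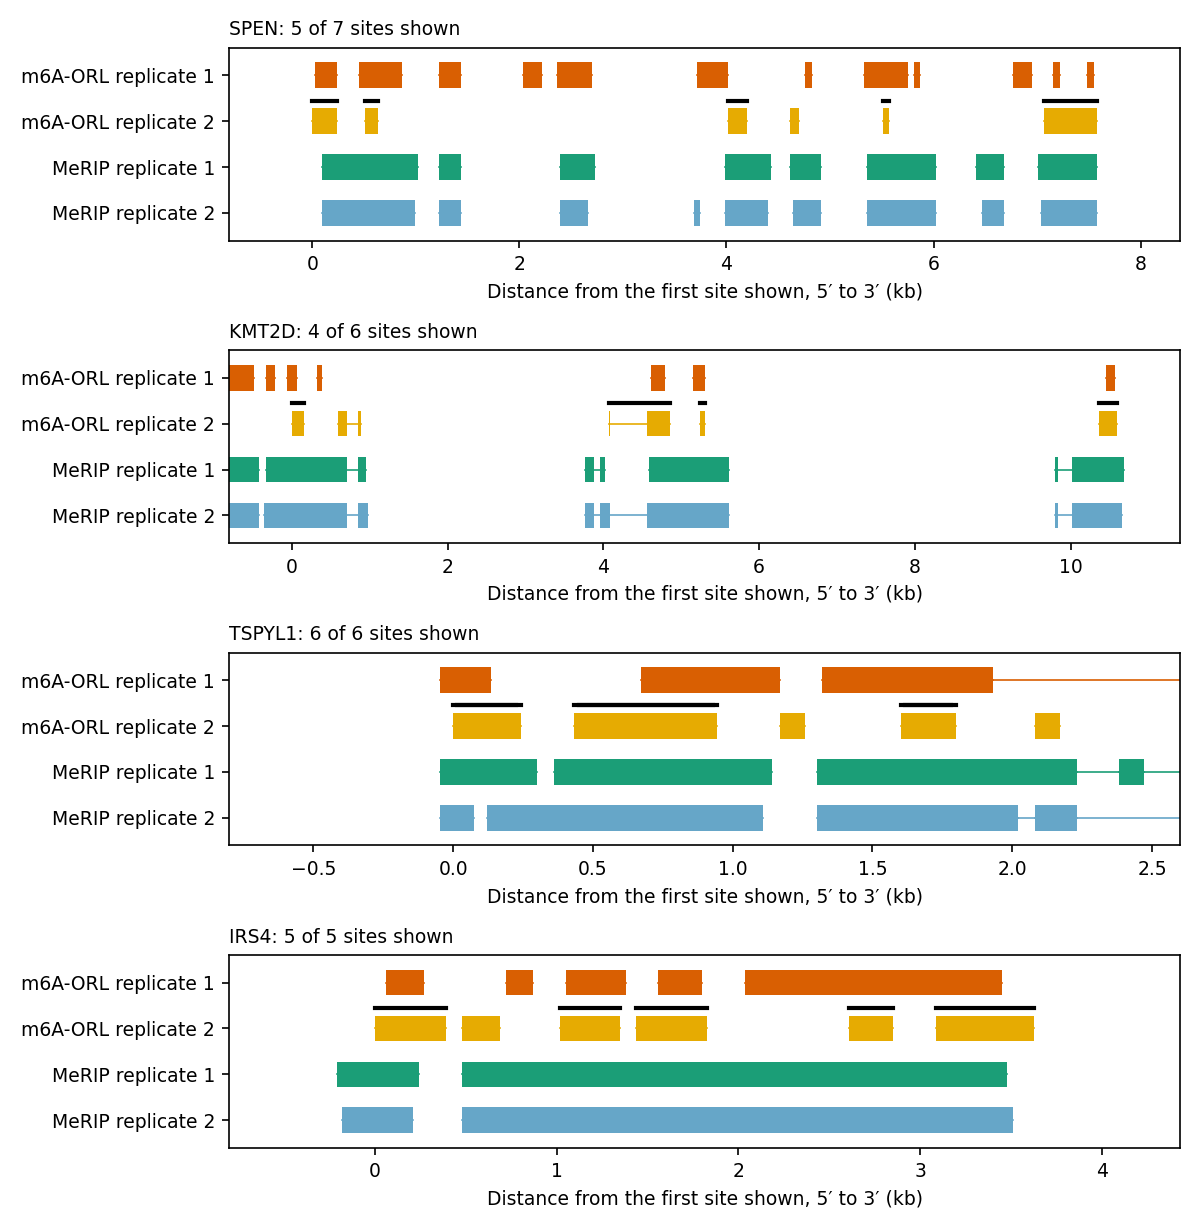
Peaks of the 4 lists in SPEN, KMT2D, TSPYL1 and IRS4, drawn in transcript direction against the distance in kb from the first site shown; boxes are blocks, thin lines join blocks of a peak, and black bars mark the sites. In IRS4, 4 of the 5 sites lie under 1 MeRIP peak of each replicate, and in TSPYL1 the 6 listed sites form 3 overlapping pairs.

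Neighbouring sites of a gene were usually close. Gaps and spreads are genomic distances with introns included, so sites far apart here can be closer on the mRNA. The 214 neighbouring pairs had a median gap of 486 nt (quartiles 178 and 3095 nt). The gap was under 300 nt in 87 pairs, 21 of them overlapping, and over 10000 nt in 34. Both sites of a pair lay in 1 peak of each MeRIP list in 119 pairs (55.6%). Among named genes, the closest separate pairs were those of SOX4, BCR and PPP1R10 at 59 nt and of IRS4 and ZNF703 at 89 nt, and each of these 5 pairs lay under a single peak in both MeRIP lists. At the other end, from the outer edge of the first site to that of the last, sites spread over 123177 nt in CHD7, a chromatin remodeller, 122147 nt in CREBBP, a histone acetyltransferase, and 120251 nt in BPTF, a subunit of the NURF remodelling complex. PIAS1, a SUMO ligase, and ADCY3, an adenylyl cyclase, followed with 101467 and 99022 nt.

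At the sites, peaks were wider in both MeRIP lists than in both m6A-ORL lists. For the peak of each list with the largest overlap at a site, the median width was 210 and 181 nt in m6A-ORL replicates 1 and 2, and 653 and 656 nt in MeRIP replicates 1 and 2. The values of the methods did not overlap. The m6A-ORL mean was 195.5 ± 20.5 nt and the MeRIP mean 654.5 ± 2.12 nt (SD, n = 2 each). A two-sided exact permutation over the 3 splits of the lists gave p = 0.333. This is the lowest it can give, so the test cannot tell the methods apart and no conclusion is drawn from it. The peaks compared were also picked by overlap, and a MeRIP peak over several sites counts once per site. Peaks of 1000 nt or more were found at 11 and 17 sites in m6A-ORL and at 361 and 363 sites in MeRIP. A single MeRIP peak covered 2 or more sites in 186 cases in replicate 1 and 187 in replicate 2, and at most 4.

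Within each list, peaks at the sites were wider than the rest of the list. Counting each peak once, the medians at the sites and among other peaks were 210 and 121 nt in m6A-ORL replicate 1, 181 and 121 nt in m6A-ORL replicate 2, 568.5 and 211 nt in MeRIP replicate 1, and 567 and 211 nt in MeRIP replicate 2. Sites also had better scores, with a median rank of 33.2% in m6A-ORL replicate 2 against 52.4% for its other peaks. Neither trait was particular to the sites. The 369 peaks shared with m6A-ORL replicate 1 only had a median rank of 28.9% and a median width of 180 nt. Peaks shared with both MeRIP lists only stood at 48.2% and 150 nt, and those in no other list at 57.1% and 121 nt. A wide peak meets other peaks more easily, so these widths are partly set by the rule that chose the sites. The deposited score of the peak with the largest overlap was 0 at 216 and 224 sites in MeRIP and at no site in m6A-ORL.

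**Figure D2:**
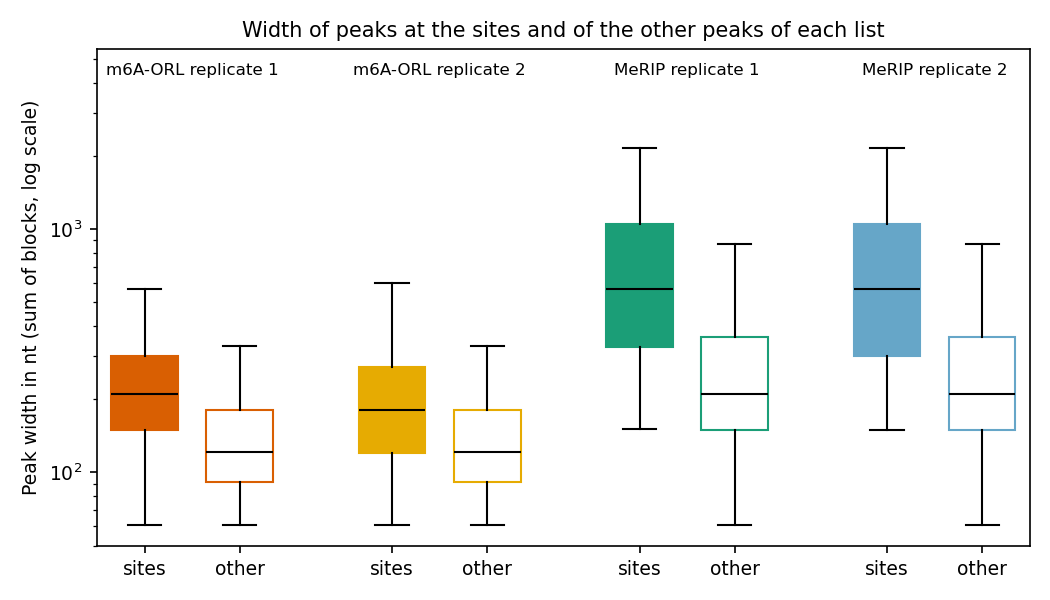
Width in nt, on a log axis, of the peaks at the sites (filled) and of the other peaks (open) of each list; boxes are quartiles with the median, whiskers the 5th and 95th percentiles. The site peaks of the MeRIP lists have medians of 568.5 and 567 nt, against 210 and 181 nt in the m6A-ORL lists.

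The stretch covered by all 4 lists at a site was much narrower than the MeRIP peaks. It had a median of 91 nt (quartiles 61 and 151 nt), was 300 nt or longer at 67 sites, and covered the whole m6A-ORL replicate 2 peak at 320 sites (29.8%). All peaks of a list that touch a site count towards this stretch. JUN had the longest, 1414 nt, followed by SOX4 with 989 nt, ZNF703 with 898 nt, KCTD12 with 719 nt and HEY1 with 688 nt, and JUN was the only one over 1000 nt. KCTD12 encodes an auxiliary subunit of GABA-B receptors and HEY1 a Notch-responsive repressor.

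At 70 sites the common stretch was a single base, as in PRRC2C, RBM15B, LARP1, PEF1 and POU4F1. At 21 sites the m6A-ORL replicate 2 peak met every list but no base was shared by all, as in CALM3, SMIM10L1 and NR2F6. In CALM3, a calmodulin gene, peaks of 240 and 210 nt in m6A-ORL and 599 nt in both MeRIP lists met in this way. Such sites are places of neighbouring signal in the 4 lists and not 1 common position.

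Centres of the peaks differed by little in the median and by much at single sites. The m6A-ORL replicate 2 centre lay a median of 15 nt downstream of the MeRIP replicate 1 centre (interval of the median 14.5 to 30 nt) and 29.5 nt downstream of the MeRIP replicate 2 centre (15 to 44.5 nt). The spread was far larger than these offsets, with quartiles of -119.5 and 229 nt for MeRIP replicate 1. Against m6A-ORL replicate 1 the median offset was -1 nt (-15 to 0 nt). Centres are midpoints of the genomic extent of a peak, so introns of spliced peaks enter the offsets. Where neither peak was spliced, the medians were 14.5 nt against MeRIP replicate 1 (671 sites) and 15 nt against MeRIP replicate 2 (670 sites). Against m6A-ORL replicate 1 this median was -14.5 nt (912 sites). Only the median offset from MeRIP was small beside the width of the MeRIP peaks.

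Fewer site peaks crossed a splice junction than other peaks of m6A-ORL replicate 2. Spliced peaks were 12.7% of the sites (10.8 to 14.9%, 137 of 1075) and 30.2% of the other 6586 peaks (29.1 to 31.3%). The order over classes was 12.7% at the sites, 18.6% of the 2151 peaks also found in both MeRIP lists only, 29.8% of the 369 found in m6A-ORL replicate 1 only, and 37.0% of the 3630 found in no other list. These peaks belong to 1 library and are not replicates, so no test across libraries was made.

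The direction was the same within each class of width. With the peaks ranked by width into 3 classes of about equal size, in the narrow class (57 to 91 nt), 0.893% of the sites and 16.8% of the other peaks were spliced. In the middle class (91 to 180 nt) the shares were 5.94% and 29.7%, and in the wide class (180 to 1852 nt) 20.9% and 46.5%. Sites were thus less often spliced in each class, although the share grew with width in both groups.

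**Figure D3:**
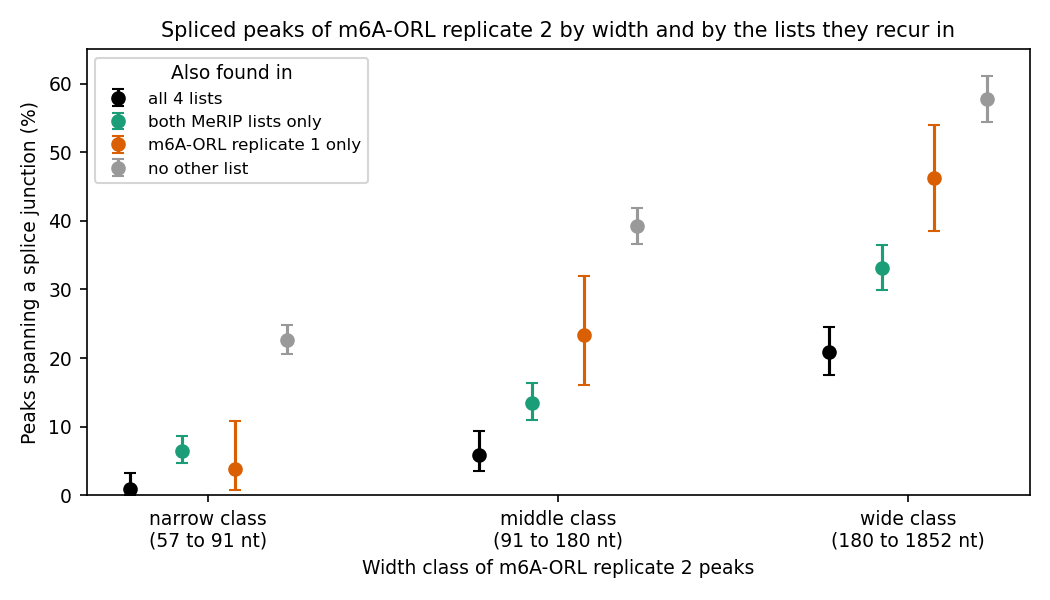
Share of m6A-ORL replicate 2 peaks that span a splice junction, in percent, by class of peak width and by the other lists the peak recurs in; points are shares and bars exact 95% binomial intervals. In the wide class the share is 20.9% at sites in all 4 lists and 57.8% for peaks in no other list.

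The direction depended on the list that was read. At the same sites, spliced peaks were 8.10% of the site peaks and 10.1% of the other peaks in m6A-ORL replicate 1. In MeRIP replicate 1 they were 32.8% of the site peaks and 16.1% of the others, and in MeRIP replicate 2 they were 32.2% and 15.4%. Both MeRIP lists therefore went the opposite way to both m6A-ORL lists, while MeRIP peaks at the sites were also the wider ones, and the part of width in this was not tested for MeRIP. The sites whose m6A-ORL replicate 2 peak had most blocks were in EIF3A, a subunit of translation initiation factor 3, with 7 blocks, PTMS, parathymosin, with 6, and CDC37, an HSP90 cochaperone, with 5. At EIF3A the m6A-ORL peaks were 61 and 1589 nt wide in replicates 1 and 2 and the MeRIP peaks 1050 and 1020 nt. The CDC37 peak is among 5 sites whose centre fell outside the span of the named gene, so its name is uncertain.

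Sites lay towards the 3′ end of genes more often than other m6A-ORL replicate 2 peaks. Position was measured on the genomic span from the 5′ to the 3′ end of the RefSeq gene, introns included, for the 918 sites and 5645 other peaks in named genes. The final 10% of the span held 34.2% of the sites (31.1 to 37.4%) and 27.0% of the other peaks (25.9 to 28.2%). The first 10% held 11.3% of the sites and 18.5% of the others. Within 300 nt of the 5′ end lay 4.79% of the sites (3.50 to 6.38%) and 9.58% of the other peaks (8.83 to 10.4%). Among peaks shared with m6A-ORL replicate 1 only, this share was 27.2%.

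**Figure D4:**
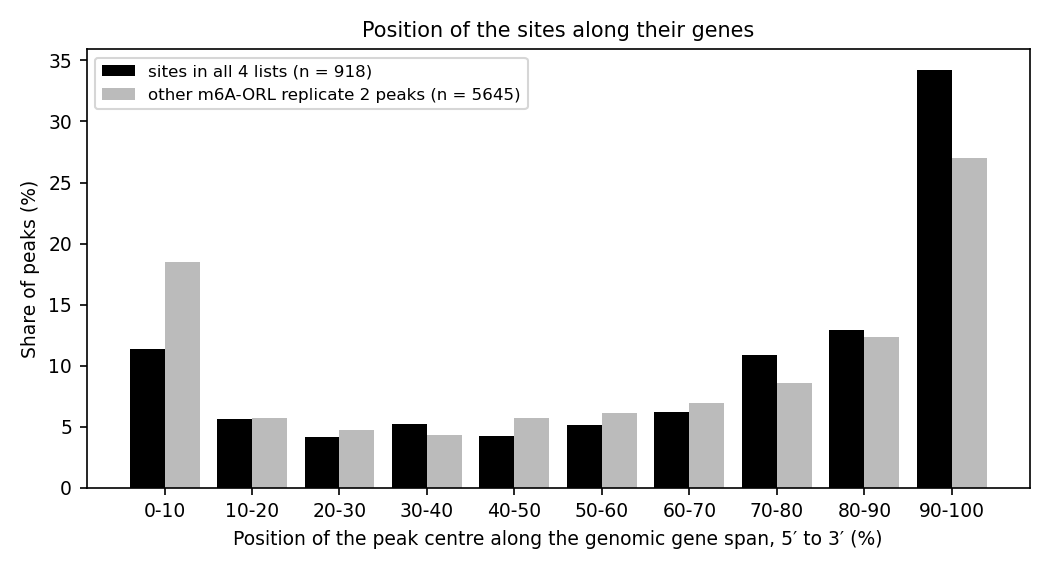
Share of peaks, in percent, by 10% step of the genomic gene span from the 5′ to the 3′ end, for sites (black) and other m6A-ORL replicate 2 peaks (grey) in named genes; the few centres outside a span are drawn in the end bins. The sites exceed the other peaks in the final 10%, 34.2% against 27.0%, and stay below them in the first, 11.3% against 18.5%.

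Measured as a share of the gene span, the position at the 3′ side was clearest for narrow peaks. In the narrow class of width, 48.7% of the sites and 30.1% of the other peaks lay in the final 10% of the span. The shares were 35.9% and 26.7% in the middle class and 27.5% and 23.9% in the wide class. Within 1000 nt of the 3′ end the shares were closer, 18.2% of the sites (15.7 to 20.8%) and 15.5% of the other peaks (14.6 to 16.5%). By width class they were 19.2% and 16.6% (narrow), 17.6% and 15.4% (middle) and 18.1% and 14.4% (wide). By this measure the narrow class did not stand out. Median gene spans at the sites were 39485 nt in the narrow and 16978 nt in the wide class, and their part was not tested. Over all widths, the difference, sites minus other peaks, was 2.69 percentage points, with an interval that narrowly excludes 0 (0.139 to 5.47). In the other 3 lists this difference had the opposite sign. It was -2.90 (-5.49 to -0.0878) percentage points in m6A-ORL replicate 1. In MeRIP replicates 1 and 2 it was -0.649 (-3.12 to 2.10) and -0.420 (-2.90 to 2.35), both intervals including 0. Peaks shared with both MeRIP lists but not with m6A-ORL replicate 1 lay in the final 10% in 32.6% of cases, close to the sites. Read in the MeRIP lists, site peaks lay there in 32.6% of cases in both replicates, against 36.2% and 36.1% of the other MeRIP peaks, differences of -3.61 (-6.76 to -0.315) and -3.50 (-6.66 to -0.192) percentage points. In m6A-ORL replicate 1 the difference was 2.50 percentage points, with an interval that includes 0 (-0.643 to 5.75). With MeRIP replicate 1 or 2 as the anchor the differences were -1.55 (-4.35 to 1.35) and -1.59 (-4.41 to 1.34), so a lower share in MeRIP was not seen beyond counting error under that rule.

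In m6A-ORL replicate 2, sites were more frequent in short genes than other peaks were. A span under 5000 nt was found for 16.0% of the sites (13.7 to 18.5%) and 10.4% of the other peaks (9.60 to 11.2%). The share was 10.6% for peaks shared with both MeRIP lists only and 26.4% for those shared with m6A-ORL replicate 1 only. The MeRIP lists differed in the same direction, by 5.91 and 6.05 percentage points. In m6A-ORL replicate 1 the shares were 17.1% of the site peaks and 16.8% of the others (difference 0.252, -2.17 to 2.91 percentage points), and with m6A-ORL replicate 2 left out the difference was -14.6. JUN, SOX4, SOX12, ZNF703 and HEY1 are genes of this kind.

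Genes were then grouped by function, counting genes with a site among genes with any m6A-ORL replicate 2 peak, of which 19.5% held a site overall. As a second measure, the share of the m6A-ORL replicate 2 peaks of each group that were sites is given against 14.0% for all peaks. Since the lists were chosen with results of these data known, the counts are descriptions.

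Early response and short-lived transcription factors, which cells switch on and off quickly, held a site in 11 of 24 genes (45.8%, 25.6 to 67.2%), and 21 of their 50 peaks were sites (42.0%). They included JUN, JUNB, JUND, IER2, KLF5, MYC, SOX4, SOX12, ZFP36L1 and ZFP36L2. ZFP36L2, an RNA-binding protein that destabilises mRNA, had peaks of 209 and 953 nt in m6A-ORL and 2234 and 2204 nt in MeRIP. EGR1, ATF3 and ID2 were among the 13 genes with an m6A-ORL replicate 2 peak and no site. Under the rule that defines the sites, both measures lay above the shares over all genes and all peaks. The share of genes was 29.2% (12.6 to 51.1%) with 50% of the peak covered, where all named genes stood at 12.9%. With peaks at or under the median score of their list it was 36.8% (16.3 to 61.6%), against 16.7%. Both of these intervals include the share over all genes. At equal list length it was 33.3% (15.6 to 55.3%), against 15.0%, which lies below the interval.

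Of the genes that write, erase and read m6A itself, 6 of 12 held a site (50%, 21.1 to 78.9%), namely the writer adaptors RBM15 and RBM15B, ZC3H13, the eraser ALKBH5 and the readers YTHDF1 and YTHDF2. Of their 30 peaks, 10 were sites (33.3%). YTHDF2 had peaks of 538 and 90 nt in m6A-ORL and 1253 and 1283 nt in MeRIP. YTHDF1 had peaks of 240 and 270 nt in m6A-ORL and 1499 and 1529 nt in MeRIP. IGF2BP1, IGF2BP2, IGF2BP3, HNRNPC, MAT2A and YTHDC1 had an m6A-ORL replicate 2 peak and no site. The site of ZC3H13 had no base common to all 4 lists. The share moved with the rule, to 25% with 50% of the peak covered, 33.3% at 50 nt of overlap, 29.4% anchored on m6A-ORL replicate 1 and 28.6% anchored on either MeRIP list, where all named genes stood at 12.9, 16.4, 12.8, 12.5 and 12.5%. Without m6A-ORL replicate 1 it was 83.3%, and 48.7% over all named genes.

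Chromatin regulators held a site in 16 of 42 genes (38.1%, 23.6 to 54.4%), with 32 of 169 peaks (18.9%). Beside KMT2D, SETD1A and SETD1B they included ARID1A, ASXL1, BRD2, BRD3, CHD7, CHD8, CREBBP, EHMT1, KAT6A, KAT6B, NSD1 and SIN3A. Relatives of these, among them KMT2A, KMT2B, KMT2C, ARID1B, CHD3, CHD4, EP300 and EHMT2, had an m6A-ORL replicate 2 peak and no site. BRD2, a bromodomain reader of acetylated histones, had peaks of 211 nt in both m6A-ORL lists and 390 nt in both MeRIP lists. ARID1A, a subunit of the SWI/SNF remodeller, had peaks of 690 and 181 nt in m6A-ORL and 1859 nt in both MeRIP lists. The excess over the background was large by genes and small by peaks, as these genes carry many peaks, and with only peaks at or under the median score of their list the share was 20.0% (7.71 to 38.6%), near the 16.7% of all named genes in that setting.

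Translation factors held a site in 8 of 22 genes (36.4%, 17.2 to 59.3%), with 11 of 52 peaks (21.2%). EIF4G1, the scaffold of the cap-binding complex, had peaks of 509 and 330 nt in m6A-ORL and 599 and 539 nt in MeRIP. EIF3B had peaks of 300 and 330 nt in m6A-ORL and 241 and 271 nt in MeRIP, one of the sites at which MeRIP peaks were the narrower ones. EEF1A1 and PABPC1 had an m6A-ORL replicate 2 peak and no site. The interval for translation factors includes the share over all genes.

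Amino acid transporters and growth signalling genes held a site in 6 of 16 genes (37.5%, 15.2 to 64.6%), with 13 of 62 peaks (21.0%). They were IRS4, the receptor IGF1R, and the transporter genes SLC7A5, SLC3A2, SLC1A5 and SLC7A1. SLC3A2 encodes the heavy chain that pairs with SLC7A5. SLC1A5, a glutamine transporter, had peaks of 447 and 745 nt in m6A-ORL and 1250 and 1220 nt in MeRIP. The kinase genes MTOR, AKT1 and AKT2 and the receptor INSR had an m6A-ORL replicate 2 peak and no site. For this group, too, the interval includes the share over all genes.

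Cell cycle and DNA repair genes held a site in 7 of 20 genes (35.0%, 15.4 to 59.2%), with 8 of 52 peaks (15.4%), close to the share over all peaks. CDK12, a kinase of RNA polymerase II, had peaks of 240 and 180 nt in m6A-ORL and 720 nt in both MeRIP lists. HOX genes, which pattern the body axis, held a site in 5 of 15 genes (33.3%, 11.8 to 61.6%), with 5 of 22 peaks (22.7%). HOXD13 had peaks of 359 and 239 nt in m6A-ORL and 1253 and 1283 nt in MeRIP. In both groups the interval includes the share over all genes.

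Other groups lay near the background under the rule that defines the sites. ZNF genes held a site in 17 of 74 genes (23.0%), cytoskeleton genes in 6 of 26 (23.1%) and Wnt, Notch and Hippo genes in 6 of 30 (20.0%). Splicing and nuclear speckle factors held a site in 5 of 29 genes (17.2%), ubiquitin ligases and deubiquitinases in 5 of 31 (16.1%) and chaperones in 2 of 15 (13.3%). Without m6A-ORL replicate 1 or 2, when 48.7 or 53.3% of all named genes held a site, the highest shares were 72.7% for ZNF genes, 75% for cytoskeleton genes, 76.7% for Wnt, Notch and Hippo genes, 39.3% for splicing factors, 72.7% for ubiquitin genes and 50% for chaperones. SRRM2, a speckle scaffold like SON, had peaks of 1110 and 451 nt in m6A-ORL and 930 nt in both MeRIP lists. HUWE1, a large ubiquitin ligase, had peaks of 511 and 480 nt in m6A-ORL and 421 and 391 nt in MeRIP. ACTB, cytoplasmic beta-actin, held 3 sites, of which the best had peaks of 360 and 210 nt in m6A-ORL and 270 and 210 nt in MeRIP. In a neighbouring pair of ACTB sites the centres lay 5665 nt apart, more than the 3454-nt span of the gene. Not all ACTB sites were thus centred inside the gene, and the name is uncertain for any that were not. The actin and HSPA1B reads can be shared with close copies, whose counting was not given in the sources used here.

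Cytosolic ribosomal protein genes held no site. Of 38 such genes with an m6A-ORL replicate 2 peak, 0 held one, which allows a share of up to 7.89%, and 0 of their 56 peaks were sites. With m6A-ORL replicate 1 left out, 5.26% of these genes held a site. Of the 76 genes of the list, 33 had a peak in m6A-ORL replicate 1 and 9 in both MeRIP lists. Nuclear genes of the respiratory chain held no site in 18 genes, which allows a share of up to 16.7%. Of this list, 19 genes had a peak in m6A-ORL replicate 1 and 6 in both MeRIP lists. Their share was 5.26% anchored on m6A-ORL replicate 1, 0 on MeRIP replicate 2 and 12.5% on MeRIP replicate 1. All named genes also stood at 12.5% with that last anchor. With a list left out, the respiratory chain share was at most 10.5%. Glycolytic enzymes held none in 8 genes, too few to place them below the 19.5% of all genes. More genes of the first 2 groups thus had m6A-ORL peaks than had MeRIP peaks.

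**Figure D5:**
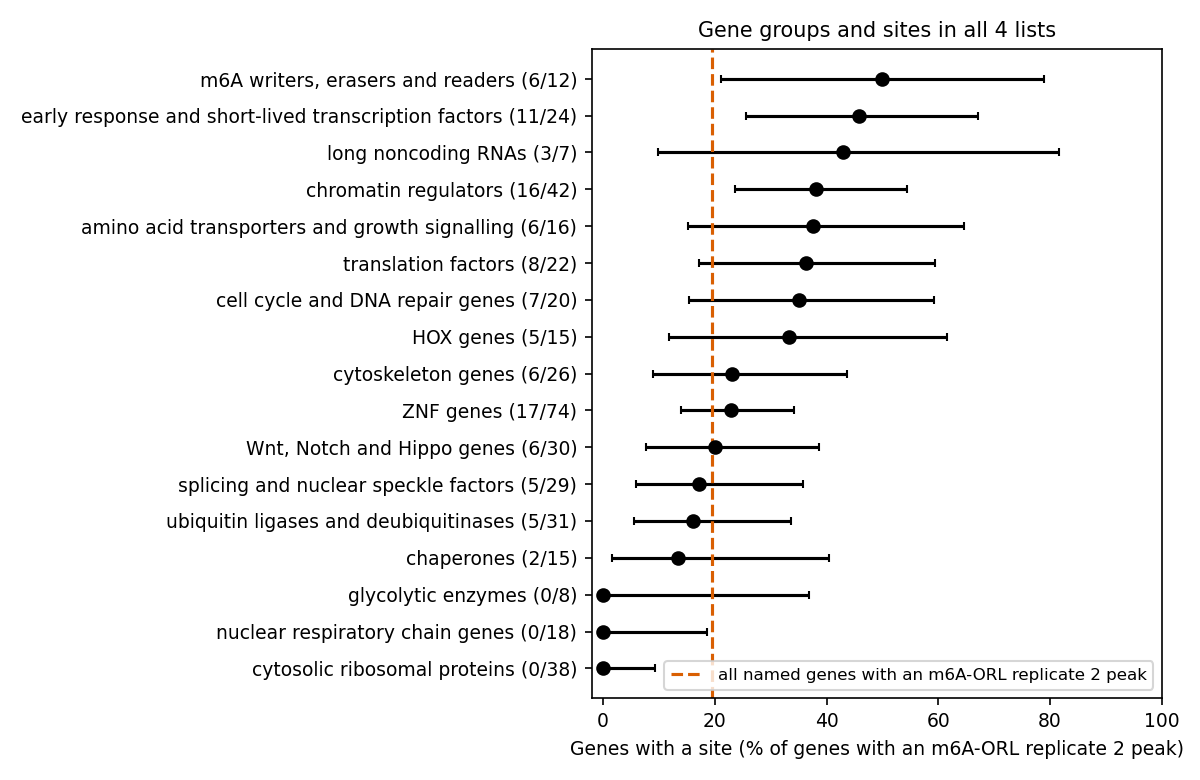
Share of genes with a site among genes with an m6A-ORL replicate 2 peak, in percent, for each functional list with 7 or more such genes; points are shares, bars exact 95% binomial intervals, counts stand in parentheses and the dashed line is the 19.5% of all named genes. The m6A genes (50%) and early response factors (45.8%) lie above the line and ribosomal protein genes at 0.

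Nearly all sites lay in protein-coding genes. Of the 918 sites in named genes, 901 (98.1%) were in protein-coding genes and 14 in long noncoding RNA genes, against 5447 (96.5%) and 115 of the other peaks. Pseudogenes held 2 sites and 52 other peaks. Of the long noncoding RNAs, MALAT1, a nuclear speckle RNA, held 2 sites, XIST, the RNA of X inactivation, held 2, and NORAD, a binder of PUMILIO proteins, held 1. The better-ranked MALAT1 site had peaks of 390 nt in both m6A-ORL lists and 599 nt in both MeRIP lists. At the better-ranked XIST site the peaks were 601 and 181 nt in m6A-ORL and 390 nt in both MeRIP lists. NORAD had peaks of 389 and 448 nt in m6A-ORL and 1224 nt in both MeRIP lists. NEAT1, TUG1, SNHG12 and SNHG15 had an m6A-ORL replicate 2 peak and no site.

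By chromosome, sites were 10.6% of the m6A-ORL replicate 2 peaks on chromosome 19 (111 of 1049, 8.79 to 12.6%) and 17.6% on chromosome 16 (101 of 573, 14.6 to 21.0%), against 14.0% in all. Chromosome 18 held 2 sites among 46 peaks (4.35%, 0.531 to 14.8%), an interval that includes the 14.0% of all peaks. Mitochondrial RNA had 23 peaks in m6A-ORL replicate 2 and 32 in replicate 1 but none in either MeRIP list, so it could hold no site. Of the 18 marker genes of other cell types, CD68 and COL1A1 had an m6A-ORL replicate 2 peak and neither held a site, and a peak list gives no level against which to check the cell label further.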

How the data were processed

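Deposited BED lists of 4 captured HEK-293T libraries were used. Per the file headers they give position, strand, blocks, an Ensembl gene ID and a score. The score deposited by the authors lies between 0 and 0.0081 and behaves like a p or q value, but which one it is, the peak caller, the input and the threshold, all not given in the sources used here, stay unknown, as does whether peaks were called per library. It served for ranks and filters inside 1 list. Trim Galore, STAR, HOMER and hg38 are named, without role or version, per the submitters' processing notes. Read depth is unknown.

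Exact duplicate lines were removed (2, 1, 4 and 3 in m6A-ORL replicates 1 and 2 and MeRIP replicates 1 and 2). Width is the sum of blocks. A gene ID took the RefSeq GRCh38.p14 name whose span on the same strand held 90% or more of its peaks' bases, conflicts being settled by a 3-fold excess or by elimination, which named 10623 of 13566 IDs (78.3%, 0 by Ensembl ID). Of the sites, 85.4% were in named genes, and of the other peaks 85.7%. Names can be wrong where genes overlap. Intervals of shares are exact (Clopper-Pearson) 95% binomial intervals. Those of differences between shares are 95% Newcombe intervals, built from Wilson limits, and those of medians come from order statistics. All treat peaks as independent. A share of 0 is limited by 3 counts. Overlap code was tested on simulated data. Python 3.11.15, numpy 2.4.6, pandas 2.3.3 and scipy 1.17.1 were used. Motifs in whole peaks were not analysed here.

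Genes named are, by rule, the 10 with the best mean rank, the 10 with most sites, up to 4 per gene list, the extremes of common stretch, spacing and block number. Other genes named to complete a list or as lacking a site fall outside this rule, and the sequence matches are the sites with GGACT in a window, 1 of them left out. The members and lists were chosen with earlier results of these data known. Alternatives were the overlap needed, whole spans, strand, score filters, list length, duplicates, the anchor list, windows, width classes and leaving out each list.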

Additional observations from a re-analysis of the deposited data

Results flagged for a closer look

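In 2 measures the peaks at the sites departed from the rest of their list in opposite directions in the methods. The share of spliced peaks at the sites minus that of the other peaks was -1.98 percentage points in m6A-ORL replicate 1 and -17.5 in m6A-ORL replicate 2, against 16.7 in MeRIP replicate 1 and 16.8 in MeRIP replicate 2. The share in the final 10% of the gene span, sites minus other peaks, was 2.50 and 7.17 percentage points in m6A-ORL replicates 1 and 2, against -3.61 and -3.50 in MeRIP replicates 1 and 2. The m6A-ORL replicate 1 interval (-0.643 to 5.75) includes 0, as do those of the MeRIP lists when they serve as the anchor. The difference between methods was not tested in either case. Median widths at the sites exceeded those of the other peaks by 89 and 60 nt in m6A-ORL and by 357.5 and 356 nt in MeRIP. Within m6A-ORL replicate 2 each class of width kept the direction of both measures, with an interval that includes 0 for the final 10% in the wide class, and the part of width was not tested in the other 3 lists. The m6A-ORL values are small in replicate 1 beside those in replicate 2, and RNA type and replicate cannot be told apart there.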

How the results depend on the processing

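The 1075 sites became 689 when 50% of the m6A-ORL replicate 2 peak had to be covered and 505 with scores at or under the median of each list. In these settings the splice difference, sites minus other peaks, was -21.4 and -22.4 percentage points, and genes with 2 or more sites were 13.7% and 15.2%. At equal list length the splice difference was -19.9 and the 5′ difference -6.61 percentage points. An overlap of 2 nt or more, chosen after seeing the data, left 1002 sites. Anchored on m6A-ORL replicate 1, the differences for splicing, the final 10% and the 5′ end were -2.05, 2.59 and -10.4. Anchored on MeRIP replicate 1 they were 17.0, -1.55 and -1.92, so that the first 2 reversed, with 12.4% of genes at 2 or more sites and a centre offset of 0.5 nt. Anchored on MeRIP replicate 2 they were 17.2, -1.59 and -2.21, the first 2 again reversed, with 11.6% and 9 nt. The intervals of 2.59 (-0.572 to 5.87), -1.55 (-4.35 to 1.35) and -1.59 (-4.41 to 1.34) all include 0, so the turned sign for the final 10% is within counting error. The difference within 1000 nt of the 3′ end was 2.69 and that in the first 10% of the span -7.18. In the middle and wide classes of width the splice difference was -23.7 and -25.6, and the difference for the final 10% was 18.6 in the narrow and, on the same scale, 3.6 in the wide class. Leaving out each list in turn gave 1089 to 5408 sites, splice differences of -19.1 to -9.74, differences for the final 10% of 6.48 to 14.9 and for the 5′ end of -26.6 to -3.92, shares of genes with 2 or more sites of 18.3 to 32.8% and offsets of 10.5 to 30 nt, and for genes under 5000 nt differences of -14.6 to 5.53. Without m6A-ORL replicate 1 there were 3226 sites, and without m6A-ORL replicate 2, anchored on replicate 1, 5408. In that last setting the difference for genes under 5000 nt was reversed. Of 1494 alternatives of 100 results, 1240 stayed within their limits, 249 moved and 5 reversed, and the causes were not tested. Of 71 named genes, 26 lost every site under at least 1 alternative, 1 of them at 2 nt and 4 at equal list length. Taking shared replicate numbers as a block, chosen after seeing the data, the width difference, m6A-ORL minus MeRIP, was -443 and -475 nt in replicates 1 and 2, mean -459 nt as without the block; nothing in the labels says that these numbers pair the libraries, and the other results are shares within a list. Unknown depth and 1 library per anchor limit every share.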
